A study of Rattus norvegicus with 16 samples.

Results

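The data measured whether the liver's response to molecular hydrogen depended on the diet. All 16 arrays of the study entered this contrast, 1 array per liver and 4 livers in each of 4 groups. The members were the 31042 probe sets other than the manufacturer's controls, of which 22634 passed a filter on low values. These included probe sets for 11435 named genes, 1 taken for each. For each of them the hydrogen difference on normal chow (hydrogen minus control) was subtracted from the hydrogen difference on the CDAA diet. A positive value of this diet dependence therefore means that hydrogen minus control was higher on the CDAA diet, and a negative value that it was lower there.

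The animals were male F344 rats, an inbred strain, given in the labels as 4 weeks old and kept under their conditions for 3 weeks. Normal chow (CE-2) or the CDAA diet, which supplies its protein as L-amino acids and lacks choline, was combined with hydrogen or with a control. Hydrogen rats drank water with 0.7 mM dissolved hydrogen and breathed air with 2% hydrogen, so both routes were always given together. Control rats drank the same water after its hydrogen had been lost by stirring in open air for 24 hours, and breathed plain air. All drinking water was distilled and held 0.44 mM Na2SO4, and all livers were kept in RNAlater before extraction. Neither the hour of sampling nor the array strip nor the scan date is known from the sources used here.

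The CDAA diet is a rodent model of fatty liver: without choline the liver makes too little phosphatidylcholine to export triglyceride, and fat and inflammation follow. Hydrogen is a small, freely diffusing gas studied as a mild reducing agent. In liver, PPAR alpha switches on fatty acid oxidation, SREBP switches on lipid synthesis, ATF4 switches on genes that answer amino acid shortage and stress, and a circadian clock built from activators (BMAL1, CLOCK, NPAS2) and repressors (PER, CRY, REV-ERB) times many metabolic genes.

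Hepatocyte genes lay near the top of the scale on every array, with albumin (Alb) at 13.70 to 13.73 log2 and transthyretin (Ttr) at 13.13 to 13.28. Array medians spanned 4.33 to 4.37. The first principal component held 66.0% of the variance and separated the diets, and the second held 8.5%. Control normal-chow replicate 4 stood apart, at -13.4 on the first component against -35.1 to -32.3 for the other 3 of its group. Control CDAA replicate 2 lay at -11.8 on the second component, on the side of 3 of the 4 hydrogen CDAA arrays, against 14.6 to 19 for the other 3 of its group. Several results that rest on either array are given with and without it.

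**Figure D1:**
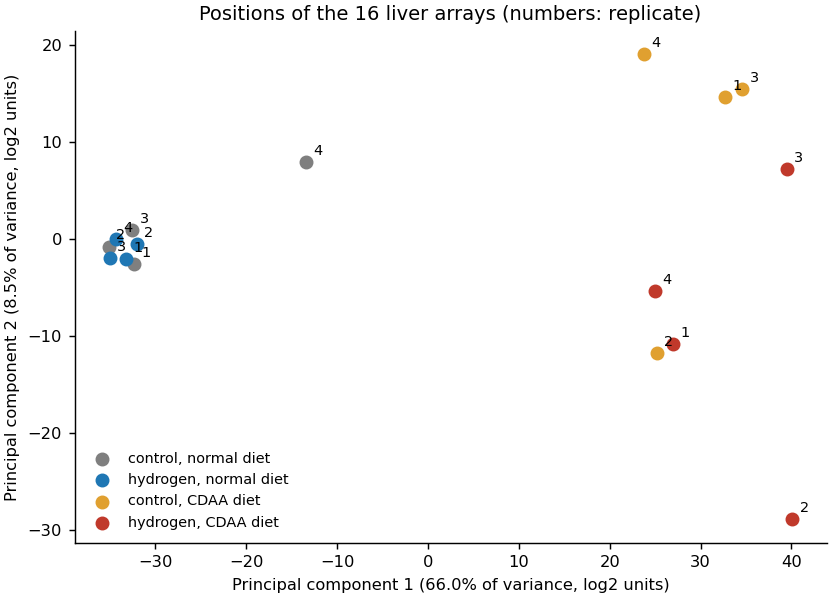
Each point is 1 array placed by its scores on the first (66.0% of variance) and second (8.5%) principal component of log2 values, coloured by group. The diets separate along the first axis, control normal-chow replicate 4 lies at -13.4 between them, and control CDAA replicate 2 lies at -11.8 on the second axis among the hydrogen CDAA arrays.

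No named gene passed the test of diet dependence (0% of 11435 genes, limma with Benjamini-Hochberg adjustment). One probe set did (0.00442% of 22634 tested), 1390117_PM_at, which has no gene name here. At an unadjusted p under 0.05, 689 genes (6.03%) had a positive diet dependence and 371 (3.24%) a negative one. After quantile normalisation was applied again the split was 519 against 540, so the excess of positive values did not hold under that scaling. The hydrogen difference on the CDAA diet had such a p for 833 genes above 0 and 607 below, or 727 and 749 after that scaling. The median standard error of the diet dependence was 0.11 log2, against 0.08 for the hydrogen difference on 1 diet.

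The called probe set 1390117_PM_at had a diet dependence of -0.68 ± 0.09 log2 (SE, n = 4 per group, adjusted p = 0.0333, limma). Its hydrogen CDAA arrays read 7.39, 7.37, 7.20 and 7.35 log2, and its control CDAA arrays 7.93, 8.11, 8.02 and 8.09. On normal chow the hydrogen arrays read 8.23, 8.26, 8.17 and 8.32, and the controls 8.33, 8.27, 8.37 and 8.14. The 4 hydrogen CDAA arrays lay below every other array, while the normal-chow groups overlapped. It fell 1.64-fold on the CDAA diet (adjusted p = 0.000165). The diet dependence stayed between -0.73 and -0.61 when any 1 array was left out, but the call was lost in 12 of the 16 cases (adjusted p 0.0585 to 0.134 in these). It was kept only without control normal-chow replicate 3, control CDAA replicates 1 or 2, or hydrogen CDAA replicate 3.

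The number of calls turned on 1 array. Without control CDAA replicate 2, diet dependence was called for 21 probe sets, 16 higher and 5 lower, among them 11 genes, all higher. They were Rusc2, Tmem268, Cirbp, a cold-inducible RNA-binding protein, Fzd8, a Wnt receptor, Sik2, a kinase of gluconeogenic and lipogenic control, Syde2, Hsd17b2, a steroid dehydrogenase, RGD1559600, Slc22a5, the plasma membrane carnitine transporter, Proser2 and the metallothionein Mt1. Control CDAA replicate 2 lay on the side of most hydrogen CDAA arrays on the second component. Leaving it out therefore favours larger hydrogen differences on the CDAA diet, and these calls are not further support for diet dependence. Without control normal-chow replicate 4 no probe set was called.

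The 2 arms share no array, but the diet dependence shares arrays with each of them. The hydrogen difference passed the test for 71 probe sets on the CDAA diet (0.314%, 40 higher and 31 lower) and for 2 on normal chow (0.00884%). In named genes these were 22 higher (0.192%) and 21 lower (0.184%) on the CDAA diet, and 1 gene, Wasf1, on normal chow (0.00875%). These numbers rest on a spread estimated over all 4 groups. With the 8 CDAA arrays fitted alone only 2 probe sets passed, of which the 1 named gene was Tmcc3, so the calls on the CDAA diet given for all other genes here were lost in that fit. With the 8 normal-chow arrays alone 17 passed, with 10 genes that included Wasf1, Slc22a5, Proser2, Lgalsl and Rprm. Array weights gave 54 on the CDAA diet and 46 on normal chow, so the order of the diets by number of calls was not the same in every fit. The CDAA arm had 346 calls without control CDAA replicate 2 and 135 without hydrogen CDAA replicate 4, against 21 without control CDAA replicate 4 and 27 without control CDAA replicate 3. No call was made on normal chow without any one of control normal-chow replicates 1, 2 and 4 and hydrogen normal-chow replicates 3 and 4. A call on 1 diet alone does not show that the diets differ. Of the 1060 genes (9.27%) with an unadjusted p under 0.05 for diet dependence, 521 had such a p for hydrogen in the CDAA arm alone, 240 in the normal-chow arm alone, 68 in both and 231 in neither. The hydrogen difference was larger in size on the CDAA diet for 693 of them, and the signs of the arms were opposite for 947. These genes were picked by the difference between the arms, which itself favours opposite signs. The number 947 therefore cannot show how often hydrogen differences reverse with diet.

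**Figure D2:**
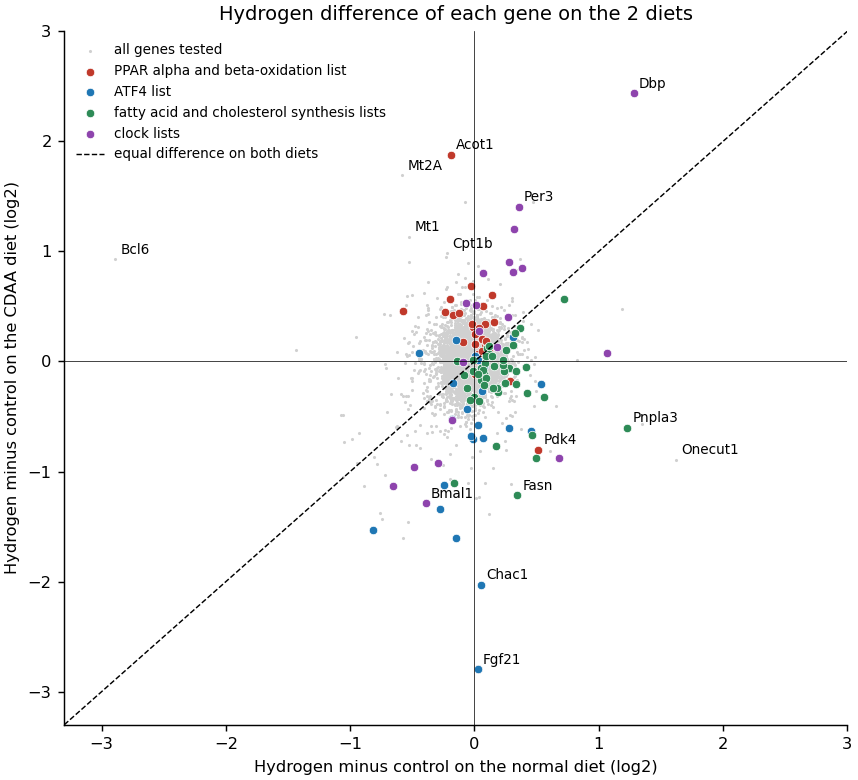
Each point is 1 of 11435 genes, with the hydrogen difference on normal chow (log2) on the x axis and that on the CDAA diet (log2) on the y axis. The vertical distance from the diagonal is the diet dependence, with Cpt1b (1.21) above it and Fasn (-1.56) and Chac1 (-2.08) below it.

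By unadjusted p, the gene leading those with a positive diet dependence was RGD1559600, an uncharacterised gene. It read 9.02, 9.28, 8.37 and 8.78 log2 under hydrogen on the CDAA diet and 7.81, 8.23, 7.87 and 7.76 in the CDAA controls. On normal chow it read 7.71, 7.58, 7.80 and 7.63 under hydrogen and 7.98, 7.99, 7.81 and 7.87 in controls. The hydrogen arrays lay wholly above the controls on the CDAA diet and wholly below them on normal chow. RGD1559600 had a diet dependence of 1.18 ± 0.21 (adjusted p = 0.175, limma). It rose on the CDAA diet (0.95 log2, adjusted p = 0.0098), a call lost only without control CDAA replicate 4 (0.0507). Fzd8 (diet dependence 0.79) and Rusc2 (0.66) passed the test on the CDAA diet too, by 0.54 and 0.51 log2, but kept that call in 4 and 11 of the 16 leave-one-out fits. Gpd2, the mitochondrial glycerol-3-phosphate dehydrogenase, had 0.66, from -0.25 on normal chow and 0.40 on the CDAA diet. Rin2, a Rab5 regulator, had 1.10, and Proser2 had 1.16, with -0.73 on normal chow, where its groups did not overlap.

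Among the leading negative genes, Wasf1, a subunit of the WAVE complex of actin branching, had its difference on normal chow. It read 6.18, 6.42, 6.45 and 6.18 log2 under hydrogen on normal chow and 5.45, 5.49, 5.52 and 5.46 in controls, with no overlap. On the CDAA diet it read 5.71, 5.39, 5.66 and 5.37 under hydrogen and 5.34, 5.75, 5.30 and 5.70 in controls, fully interleaved. Wasf1 rose by 0.83 log2 on normal chow (adjusted p = 0.0235, limma), against 0.01 on the CDAA diet, and its diet dependence of -0.82 had an adjusted p of 0.175. The chow call was kept in 10 of the 16 leave-one-out fits and lost with the replicate block (adjusted p = 0.0579). Cmklr1, the chemerin receptor, also had its larger difference on normal chow, at 0.32, where hydrogen arrays were all above controls. On the CDAA diet they were all below controls, by the smaller difference of -0.09. The diet dependence of Cmklr1 was -0.41, but its second probe set gave -0.05. Dipk2a (-0.86), Siah1, a ubiquitin ligase (-0.56), Rtp3 (-0.99) and Sema3f (-0.43) completed the named negative genes outside the metabolic groups. The second Dipk2a probe set gave 0.10, so the probe sets of this gene disagree.

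Genes of PPAR alpha and beta-oxidation mostly had positive values of diet dependence. Of 33 measured members of 42, 25 were above 0, 12 were higher at an unadjusted p under 0.05 (background 6.03%) and 2 lower (background 3.24%), with a median of 0.160 against 0.010 over all genes. The medians in the arms were 0.185 on the CDAA diet and 0.025 on normal chow. With CDAA feeding 17 members were higher and 2 lower at that p (background 7.28% and 5.31%), and 1 passed the adjusted test. That gene was Acot1, a cytosolic thioesterase that frees fatty acids from coenzyme A and a standard PPAR alpha target. Named members at an unadjusted p under 0.05 included Ech1 (0.72), Ehhadh (0.44), Eci1 (0.46) and Abcd3 (0.25), all of peroxisomal or mitochondrial oxidation, Pex11a (0.69), a peroxisome division factor, and Vnn1 (1.04), a pantetheinase. Medium-chain and long-chain dehydrogenases differed little, with Acadm at -0.01 and Acadl at -0.01, as did the trifunctional protein subunit Hadha at 0.07.

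Acot1 read 8.05, 8.24, 9.59 and 7.94 log2 under hydrogen on the CDAA diet and 7.78, 6.46, 6.07 and 5.99 in the CDAA controls, with every hydrogen array above every control. On normal chow all 4 hydrogen arrays lay below the low-value filter of 3.68 log2, as did 3 of the 4 controls, so no size of the diet dependence is given for Acot1, which entered the test through its CDAA arrays. Acot1 rose 3.68-fold on the CDAA diet (adjusted p = 0.0441, limma), a call kept in 4 of the 16 leave-one-out fits.

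The carnitine shuttle carries acyl groups between the cytosol, peroxisomes and mitochondria, and its genes Cpt1a, Cpt1b and Crot were chosen after their values were seen. Cpt1b, the muscle form of the rate-limiting acyltransferase, read 6.41, 7.11, 6.84 and 6.35 log2 under hydrogen on the CDAA diet and 6.15, 5.80, 5.49 and 5.33 in the CDAA controls. It read 4.36, 3.95, 4.22 and 4.38 under hydrogen on normal chow and 4.51, 4.26, 4.35 and 4.68 in controls. The groups were apart on the CDAA diet and overlapped on normal chow. Cpt1b rose 1.98-fold on the CDAA diet (adjusted p = 0.03, limma), kept in 11 of the 16 leave-one-out fits, with a diet dependence of 1.21 ± 0.26 (adjusted p = 0.179).

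Slc22a5, which brings carnitine into the cell, differed in opposite directions on the diets. Under hydrogen it read 8.15, 8.15, 8.10 and 8.22 log2 on the CDAA diet and 6.78, 6.88, 6.81 and 6.81 on normal chow. The controls read 7.36, 8.08, 6.88 and 7.42 on the CDAA diet and 7.13, 7.26, 7.22 and 7.17 on normal chow. Hydrogen arrays were all above controls on the CDAA diet and all below them on normal chow, and CDAA control replicate 2 (8.08) was the control nearest the hydrogen values. Its diet dependence was 1.09 ± 0.22 (adjusted p = 0.179, limma), and without that array it was 1.31 (adjusted p = 0.000594). Leaving out the control nearest the hydrogen values must widen the difference, so the smaller adjusted p is not further support.

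Crot, the peroxisomal octanoyltransferase, read 10.63, 10.62, 10.78 and 10.60 log2 under hydrogen on the CDAA diet and 10.07, 10.35, 9.83 and 10.24 in the CDAA controls, with no overlap. Its normal-chow arrays spanned 10.54 to 10.68 in both groups together, close to the hydrogen CDAA arrays. Crot rose 1.45-fold on the CDAA diet (adjusted p = 0.0132, limma) in every leave-one-out fit, and its diet dependence was 0.51 ± 0.12 (adjusted p = 0.253). The CDAA diet itself lowered Crot in control rats by 0.45 log2 (adjusted p = 0.000783), while under hydrogen the diet difference was 0.06 (adjusted p = 0.589). Crat, the acetyltransferase of the shuttle, had a diet dependence of 0.77 and the liver form Cpt1a one of 0.57, neither past the adjusted test.

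Pdk4, the kinase that shuts off pyruvate dehydrogenase and also a PPAR alpha target, had the opposite sign to Cpt1b. It read 9.78, 9.35, 9.74 and 10.23 log2 under hydrogen on the CDAA diet and 10.85, 10.83, 10.08 and 10.54 in the CDAA controls. The normal-chow arrays read 10.67, 10.74, 10.23 and 10.13 under hydrogen and 9.69, 10.13, 10.20 and 9.71 in controls. The groups overlapped on both diets. Its diet dependence was -1.31 ± 0.29 (adjusted p = 0.205, limma), and a second probe set of Pdk4 gave -0.32.

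**Figure D3:**
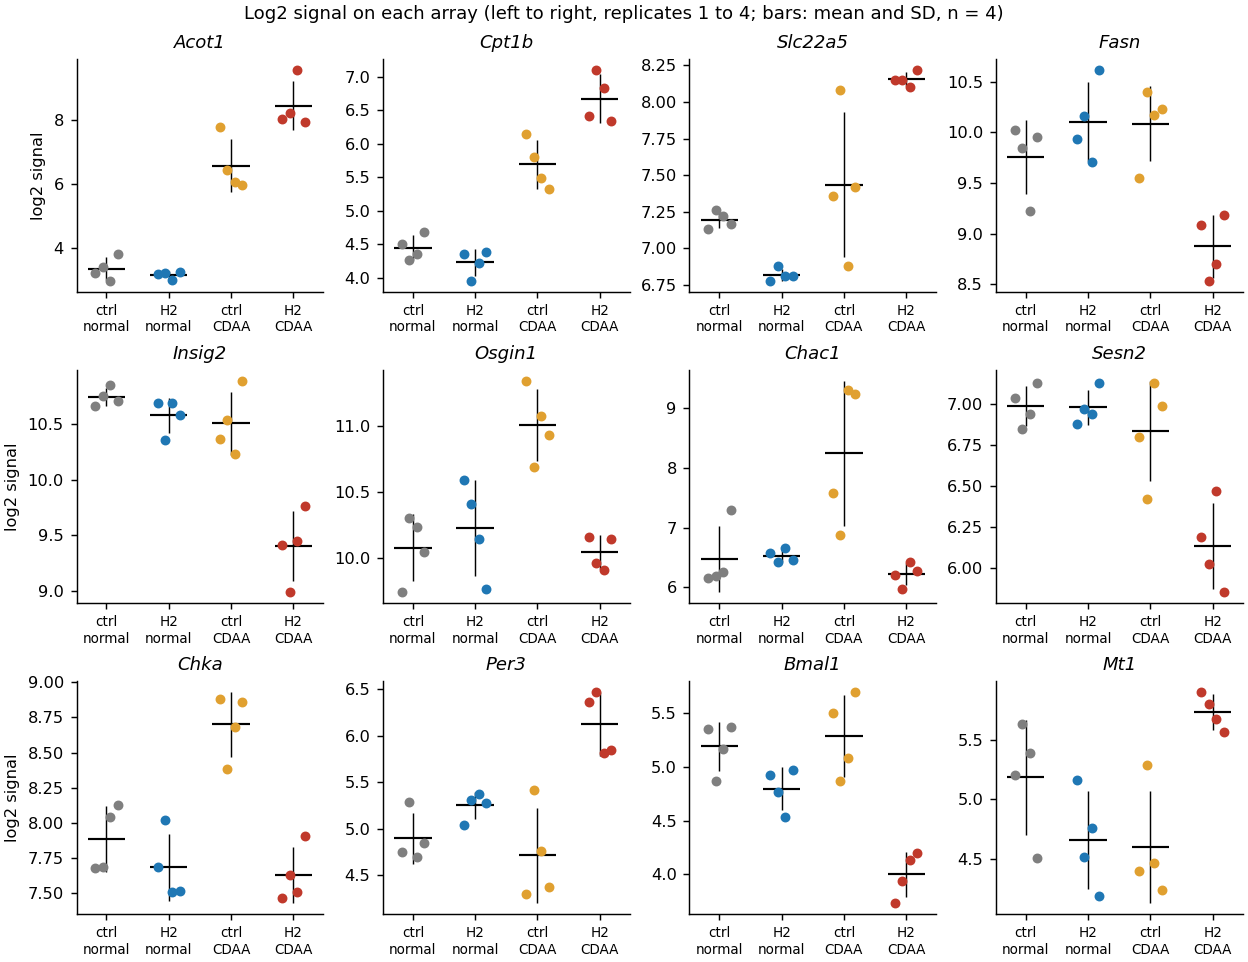
Points are single arrays and bars the mean and SD of 4 arrays (log2 signal) for 12 genes in the 4 groups. On the CDAA diet the hydrogen arrays lie wholly above the controls for Acot1, Cpt1b, Slc22a5, Per3 and Mt1 and wholly below them for Fasn, Insig2, Osgin1, Chac1, Chka and Bmal1, while the Sesn2 groups overlap.

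Fatty acid synthesis genes ran the other way. Of 23 measured members of 26, only 2 had a diet dependence above 0, with a median of -0.312. At an unadjusted p under 0.05, 5 were lower (21.7%, background 3.24%) and none higher (background 6.03%). On the CDAA diet 4 members were lower under hydrogen at that p (17.4%, background 5.31%), and 1 passed the adjusted test. The median hydrogen difference was 0.158 on normal chow and -0.167 on the CDAA diet. These medians moved with single arrays, to 0.048 on chow without hydrogen normal-chow replicate 4 and to -0.053 on the CDAA diet without hydrogen CDAA replicate 2, where the median diet dependence was -0.196. The 5 lower members were Fasn, Acly, Pnpla3, Mid1ip1, an activator of acetyl-CoA carboxylase (-0.88), and Me1, the malic enzyme (-0.71). The number lower was 3 without hydrogen normal-chow replicate 4, 8 without control CDAA replicate 1, and under hydrogen on the CDAA diet 9 without replicate 1 and 10 without replicate 4. Elovl6, an elongase, had -0.95 (unadjusted p = 0.0936), Srebf1 -0.31 and Thrsp -0.15.

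Fasn, the fatty acid synthase, read 9.08, 8.53, 8.70 and 9.18 log2 under hydrogen on the CDAA diet and 9.55, 10.40, 10.17 and 10.23 in the CDAA controls, with no overlap. Normal-chow livers read 9.93, 10.16, 9.71 and 10.62 under hydrogen and 10.02, 9.85, 9.22 and 9.95 in controls, with overlap. Fasn fell 2.32-fold on the CDAA diet (adjusted p = 0.03, limma), against a difference of 0.35 log2 on normal chow, and its diet dependence was -1.56 ± 0.32 (adjusted p = 0.179). A second probe set of Fasn gave -2.11. The CDAA call was kept in 11 of the 16 leave-one-out fits and was lost without control CDAA replicate 3 or 4 or hydrogen CDAA replicate 1, 2 or 3. Acly, which makes cytosolic acetyl-CoA from citrate, had -1.37 ± 0.37 (adjusted p = 0.308), from 0.49 on normal chow and -0.87 on the CDAA diet. Pnpla3, a lipid droplet hydrolase chosen after its values were seen, reached 8.42 and 7.58 log2 in 2 of the hydrogen normal-chow arrays and lay below the low-value filter on all 4 hydrogen CDAA arrays (3.50 to 3.63).

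Cholesterol synthesis and sterol sensing gave 23 measured members of 29, of which 2 were above 0, with a median diet dependence of -0.177. At an unadjusted p under 0.05, 7 were lower (30.4%, background 3.24%) and none higher (background 6.03%). The number lower was 4 without hydrogen normal-chow replicate 2 or 4. The arms had medians of 0.145 on normal chow and -0.052 on the CDAA diet, and 1 member passed the adjusted test on the CDAA diet. The sign of the CDAA median was not stable, at 0.020 without control CDAA replicate 2 and 0.071 without hydrogen CDAA replicate 3. The median diet dependence was -0.104 and -0.114 in those fits and -0.300 without control CDAA replicate 1. The member that passed was Insig2, which holds the SREBP complex in the endoplasmic reticulum. Insig2 read 9.41, 8.99, 9.45 and 9.76 log2 under hydrogen on the CDAA diet and 10.37, 10.54, 10.23 and 10.89 in the CDAA controls, and no array overlapped. The normal-chow arrays spanned 10.36 to 10.85 over both groups. Insig2 fell 2.15-fold on the CDAA diet in all 16 leave-one-out fits (adjusted p = 0.00259, limma), and its diet dependence was -0.94 ± 0.21 (adjusted p = 0.205). Its paralog Insig1 had -1.13 ± 0.36 (adjusted p = 0.374), from 0.46 on normal chow and -0.67 on the CDAA diet. Enzymes of the pathway at that unadjusted p were smaller in size, with Mvd at -0.46, Fdps at -0.44, Lss at -0.43, Dhcr7 at -0.39 and Cyp51 at -0.29. Srebf2, the master regulator, had -0.09 and Sqle, squalene epoxidase, -0.16.

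ATF4 and amino acid stress genes had a median of -0.626 over 24 measured members of 25, with 4 above 0. At an unadjusted p under 0.05, 7 were lower (29.2%, background 3.24%) and none higher (background 6.03%). The median hydrogen difference was -0.549 on the CDAA diet and 0.005 on normal chow. On the CDAA diet 11 were lower at that p (45.8%, background 5.31%) and 1 passed the adjusted test. Without control CDAA replicate 4 the median diet dependence was -0.299 and the CDAA median -0.320, against -0.838 and -0.795 without control CDAA replicate 2. The number of lower members was 12 without control normal-chow replicate 4, 12 without control CDAA replicate 2 and 17 without both. It was 4 without any one of control normal-chow replicate 1, hydrogen normal-chow replicates 2 and 3, control CDAA replicates 3 and 4 and hydrogen CDAA replicates 1 and 2. On control normal-chow replicate 4 the mean of the group's members, relative to each gene's mean over all arrays, was 0.31 log2, against -0.888 to -0.673 on the other 3 controls. On control CDAA replicate 2 that mean was 0.249, the lowest of the CDAA controls. Leaving out either array therefore favours a more negative diet dependence, and the larger numbers of lower members are not further support.

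Atf4 itself, the transcription factor, read 9.73, 9.32, 10.19 and 9.69 log2 under hydrogen on the CDAA diet and 10.43, 9.78, 10.55 and 10.70 in the CDAA controls. With chow it read 9.71, 9.91, 9.82 and 9.81 under hydrogen and 9.07, 9.00, 9.53 and 9.82 in controls. The groups overlapped on both diets, and hydrogen minus control was 0.46 log2 on chow and -0.63 on the CDAA diet. In control rats the CDAA diet raised Atf4 by 1.01 log2 (adjusted p = 0.00143, limma), against -0.08 under hydrogen (adjusted p = 0.774). Atf4 had a diet dependence of -1.09 ± 0.30 (adjusted p = 0.308, limma). Without both arrays that stood apart it was -1.44 (adjusted p = 0.0319), an alternative chosen after the data were seen. Those arrays held its highest normal-chow control value (9.82) and its lowest CDAA control value (9.78). Leaving them out must make the value more negative, so the smaller adjusted p is not further support.

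Chac1, which degrades glutathione and is one of the sharpest ATF4 targets, read 6.21, 5.97, 6.42 and 6.27 log2 under hydrogen on the CDAA diet and 7.57, 6.88, 9.30 and 9.23 in the CDAA controls. On normal chow it read 6.58, 6.42, 6.65 and 6.45 under hydrogen and 6.15, 6.19, 6.25 and 7.30 in controls. The CDAA controls were above all hydrogen CDAA arrays and, replicate 2 aside, above every normal-chow array. The difference on the CDAA diet was 4.08-fold lower (adjusted p = 0.0506, just over the threshold), and the diet dependence was -2.08 ± 0.59 (adjusted p = 0.332, limma). In control rats the CDAA diet raised Chac1 by 1.77 log2 (adjusted p = 0.0034), while under hydrogen the diet difference was -0.31 (adjusted p = 0.564). Without both arrays that stood apart, the diet dependence of Chac1 was -2.81 (adjusted p = 0.02). Those arrays held its highest normal-chow control value (7.30) and its lowest CDAA control value (6.88). Leaving them out must make the value more negative, so the smaller adjusted p is not further support.

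Sesn2, a stress-induced brake on mTORC1, was the member that fell on the CDAA diet (-0.70 log2, adjusted p = 0.0474, limma), a call kept in 2 of the 16 leave-one-out fits, and its second probe set had a diet dependence of -0.17. Its CDAA groups overlapped, at 6.19, 6.02, 6.47 and 5.85 log2 under hydrogen and 6.80, 6.42, 7.13 and 6.99 in controls, and its diet dependence was -0.69 ± 0.20 (adjusted p = 0.335). Slc38a2, a neutral amino acid carrier, had -0.88, Cebpb, a liver transcription factor, -0.74, and Atf5 -0.37, each at an unadjusted p under 0.05. Ddit4 (-1.46), Trib3 (-1.06) and Ddit3 (-0.87) had values of like size but missed that p, and Asns, asparagine synthetase, had 0.52.

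Fgf21, a liver hormone that ATF4 and PPAR alpha both drive, was the case where 1 array lay farthest from its group. It read 4.83, 4.59, 5.17 and 9.23 log2 in the normal-chow controls, where replicate 4 was alone near the CDAA values, and 5.56, 6.36, 6.21 and 5.79 under hydrogen. On the CDAA diet it read 9.10, 8.87, 10.99 and 11.02 in controls and 7.28, 6.57, 9.10 and 5.85 under hydrogen, where 1 hydrogen array reached the control range. The diet dependence of Fgf21 was -2.82 ± 1.25 (adjusted p = 0.524, limma), and -4.29 without both arrays that stood apart. Those arrays held its highest normal-chow control value (9.23) and its lowest CDAA control value (8.87), so leaving them out must make the value more negative. Osgin1, an oxidative stress-induced growth inhibitor among the leading genes by p, was more even. It read 10.16, 9.96, 9.91 and 10.14 log2 under hydrogen on the CDAA diet and 11.34, 10.69, 11.07 and 10.93 in the CDAA controls, with no overlap. Osgin1 fell 1.95-fold on the CDAA diet (adjusted p = 0.0225), kept in 12 of the 16 leave-one-out fits, against 0.15 log2 on normal chow, and its diet dependence was -1.11 ± 0.24 (adjusted p = 0.179).

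The CDAA diet removes choline, and the gene whose enzyme first phosphorylates choline was lower under hydrogen on that diet. Chka, choline kinase alpha, read 7.47, 7.63, 7.51 and 7.91 log2 under hydrogen on the CDAA diet and 8.88, 8.38, 8.68 and 8.86 in the CDAA controls. The normal-chow arrays read 7.69, 8.02, 7.51 and 7.52 under hydrogen and 7.68, 7.69, 8.04 and 8.13 in controls. The CDAA controls stood above all 12 other arrays, among which the groups overlapped. Chka fell 2.10-fold on the CDAA diet in all 16 leave-one-out fits (adjusted p = 0.00264, limma), and its diet dependence was -0.87 ± 0.20 (adjusted p = 0.233). The diet raised Chka by 0.82 log2 in control rats (adjusted p = 0.000435), against -0.06 under hydrogen (adjusted p = 0.775). The wider choline and one-carbon group showed no common direction, with 29 measured members and a median of -0.002. At an unadjusted p under 0.05, 2 were higher (6.9%, background 6.03%) and 4 lower (13.8%, background 3.24%). Besides Chka these were the choline carrier Slc44a1 (0.49) and Mat2b (0.15) above 0, and Pcyt1b (-0.33), Cbs (-0.36) and Cth (-0.30) below it.

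Clock genes held several of the strongest differences on the CDAA diet. The repressors and outputs had 18 measured members of 22 and a median diet dependence of 0.356. At an unadjusted p under 0.05, 6 were higher (33.3%, background 6.03%) and 3 lower (16.7%, background 3.24%). With CDAA feeding their median hydrogen difference was 0.461, and 4 rose and 3 fell by the adjusted test, against 0.192% and 0.184% of all genes. Only 1 fell with median-centred arrays, without a filter, with the replicate block, with trended and robust variances and in most leave-one-out fits. The number that rose was 2 without control CDAA replicate 4 or hydrogen CDAA replicate 1 or 2, and 8 without control CDAA replicate 2. On normal chow the median was 0.229 and no member passed it. Of the core activators only Bmal1 and Npas2 were measured, and both fell on the CDAA diet.

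The promoter stretches of 3 of these genes are shown because they carry the short elements through which the clock proteins are known to act on one another. They are RefSeq sequences of the rat assembly GRCr8, and capitals mark an exact match, searched on both strands of a window from 250 bases before to 50 after the start. The Bmal1 stretch (chr1:176766228-176766327, plus strand) holds AAGTAGGTCA, a match to AA and TAGGTCA with any base between, which is bound by the activator ROR and the repressor REV-ERB. The Per2 stretch (chr9:99497132-99497231, minus strand) holds the D-box TTATGTAA, bound by DBP, TEF and HLF and by their opponent NFIL3. The Tef stretch (chr7:115206582-115206681, plus strand) holds the E-box CACGTG, bound by BMAL1 with CLOCK or NPAS2.
Bmal1: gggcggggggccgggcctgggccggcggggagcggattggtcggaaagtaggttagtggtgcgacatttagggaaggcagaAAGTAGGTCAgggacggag
Per2: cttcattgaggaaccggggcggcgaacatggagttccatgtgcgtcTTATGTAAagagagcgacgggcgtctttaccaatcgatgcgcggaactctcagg
Tef: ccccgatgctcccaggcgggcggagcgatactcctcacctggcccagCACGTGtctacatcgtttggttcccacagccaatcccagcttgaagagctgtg
Among all 27457 promoters in the table, 0.222% held the ROR element, 0.881% the D-box and 6.65% the E-box. Of the 15 repressors and outputs with a promoter there, 3 held the E-box (Tef, Bhlhe40 and Bhlhe41) and 1 the D-box (Per2). The E-box was not particular to this group, as 4 of 22 ATF4 and 3 of 19 cholesterol promoters held it. It was in 1 of 28 PPAR alpha and 1 of 20 fatty acid synthesis promoters. A match describes letters, and these arrays did not measure binding.

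Bmal1, the activator whose promoter holds the ROR element, read 3.73, 3.94, 4.13 and 4.20 log2 under hydrogen on the CDAA diet and 5.50, 4.87, 5.08 and 5.70 in the CDAA controls. Normal-chow livers read 4.92, 4.77, 4.53 and 4.97 under hydrogen and 5.35, 4.87, 5.17 and 5.37 in controls. Hydrogen arrays lay lower on both diets, without overlap on the CDAA diet and with overlap on chow. Bmal1 fell 2.44-fold on the CDAA diet in every leave-one-out fit (adjusted p = 0.00223, limma), against -0.39 log2 on normal chow, and its diet dependence was -0.89 ± 0.24 (adjusted p = 0.296). Npas2, a partner of BMAL1, fell by 1.13 log2 on the CDAA diet (adjusted p = 0.049953) and kept the call in 3 of the 16 fits. Its difference on normal chow was -0.66, and its diet dependence -0.47 ± 0.32.

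Dbp, a D-box activator and clock output, read 8.52, 8.42, 7.77 and 7.85 log2 under hydrogen on the CDAA diet and 5.06, 6.63, 5.89 and 5.24 in the CDAA controls. With chow it read 7.20, 7.55, 7.60 and 7.12 under hydrogen and 5.84, 6.77, 6.09 and 5.65 in controls. Every hydrogen array was above every control on both diets. Dbp rose 5.41-fold on the CDAA diet (adjusted p = 0.00183, limma), while the 1.28 log2 on normal chow had an adjusted p of 0.224. The diet dependence of Dbp was 1.15 ± 0.43 (adjusted p = 0.464).

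Per3, a period gene, read 6.36, 6.47, 5.81 and 5.84 log2 under hydrogen on the CDAA diet and 4.30, 5.42, 4.76 and 4.37 in the CDAA controls, with no overlap. On normal chow it read 5.04, 5.31, 5.37 and 5.28 under hydrogen and 4.75, 5.29, 4.69 and 4.85 in controls, with overlap. Per3 rose 2.65-fold on the CDAA diet (adjusted p = 0.00937, limma) in all 16 leave-one-out fits, and had a diet dependence of 1.05 ± 0.30 (adjusted p = 0.343). Per2 rose 2.30-fold on the CDAA diet (adjusted p = 0.0278), a call kept in 13 of the 16 fits, with a diet dependence of 0.89 ± 0.31, but its second probe set gave -0.07. Tef, the D-box activator whose promoter holds the E-box, rose 1.87-fold (adjusted p = 0.0286), kept in 11 of the 16 fits. Its diet dependence was 0.63 ± 0.23, and the lowest of its 3 probe sets gave 0.04. Cry1, a repressor of BMAL1, fell by 0.53 log2 on the CDAA diet (adjusted p = 0.00515) and lay wholly below controls on both diets, with a diet dependence of -0.35 ± 0.11.

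The remaining clock members were mixed, with Cry2 (0.51) and Bhlhe41 (0.60) higher and Tsku, a clock-controlled secreted protein (-1.56), lower at an unadjusted p under 0.05. Nfil3, the D-box repressor, fell by 0.96 log2 on the CDAA diet (adjusted p = 0.049953, limma), and Rora, which drives Bmal1 and was chosen after its values were seen, fell by 0.92. Those calls were kept in 1 and 3 of the 16 leave-one-out fits, and the second Rora probe set had a diet dependence of -0.21 against -0.62. On normal chow Nfil3 and Rora had -0.49 and -0.29. Nr1d1, which encodes REV-ERB alpha, had a hydrogen difference of 0.38 on normal chow and 0.85 on the CDAA diet and a diet dependence of 0.47 (unadjusted p = 0.201), and Nr1d2 had 0.14. Every clock gene named here as called on the CDAA diet had a difference of the same sign and smaller size on normal chow, and no diet dependence among them passed the adjusted test. Control CDAA replicate 2 was the CDAA control nearest the hydrogen arrays for Dbp, Per3, Bmal1, Npas2 and Tef. Leaving out 1 array at a time put the median diet dependence of the repressors and outputs between 0.212 and 0.435. As background, clock transcripts vary over the day, and hours of sampling were not analysed here.

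Metallothioneins, which bind zinc and copper and are induced by metals and glucocorticoids, differed mainly on the CDAA diet. Mt1 read 5.90, 5.80, 5.67 and 5.56 log2 under hydrogen on the CDAA diet and 4.40, 5.29, 4.47 and 4.24 in the CDAA controls, without overlap. The normal-chow arrays read 5.16, 4.52, 4.76 and 4.19 under hydrogen and 5.20, 5.63, 5.39 and 4.51 in controls, with overlap. Its diet dependence was 1.66 ± 0.35 (adjusted p = 0.179, limma), made of -0.53 and 1.13, and without control CDAA replicate 2 it was 1.89 (adjusted p = 0.0382). That array (5.29) was the CDAA control nearest the hydrogen values, so leaving it out must widen the difference and is not further support. Mt2A had -0.58 on normal chow and 1.69 on the CDAA diet, with a diet dependence of 2.28 ± 0.71 (adjusted p = 0.374). Its chow value rested on hydrogen normal-chow replicate 4, at 6.04 log2 against 8.09 to 8.80 on the other 3, and was 0.02 without it. Over the 15 measured genes of metallothioneins and iron the median was 0.110. At an unadjusted p under 0.05, 3 were higher (20%, background 6.03%) and 2 lower (13.3%, background 3.24%). The iron hormone hepcidin, Hamp, had -0.96 and its target ferroportin, Slc40a1, 0.33.

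Markers of macrophages and of antigen presentation had positive medians, and how many of them reached a small p turned on single arrays. In whole liver, fewer cells of a type and less RNA per cell cannot be told apart. Of 30 measured Kupffer and macrophage markers (of 36), 27 were above 0, with a median of 0.266. At an unadjusted p under 0.05, 4 were higher (13.3%, background 6.03%). These were Cd163, a scavenger receptor (0.44), Lgals3, galectin 3 (0.64), Mmp12 (1.07) and Slc40a1 (0.33). That number was 2 without control normal-chow replicate 4, 2 without control CDAA replicate 2 and 0 without both, against 14 without control normal-chow replicate 2. It was 8 without control CDAA replicate 3 and 11 without hydrogen CDAA replicate 4. The markers' summed linear signal was 7419 to 10353 in normal-chow controls, 8384 to 9271 under hydrogen on chow, 11755 to 14559 in CDAA controls and 12605 to 17322 under hydrogen on the CDAA diet. The CDAA ranges overlapped. Mmp12, a macrophage elastase, read 5.89 log2 on control normal-chow replicate 4 and 4.18 to 4.55 on the other 3 controls. The normal-chow difference of Mmp12 was -0.55, and -0.17 without that array.

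All 10 measured MHC class II genes were above 0, with a median of 0.309. At that p 2 were higher (20%, background 6.03%), RT1-DMb (0.43) and Ifi30 (0.32). This number was 0 without any one of control normal-chow replicates 3 and 4, control CDAA replicates 2 and 4 and hydrogen CDAA replicates 1 and 2, and 7 without control normal-chow replicate 2. Their summed signal was 4838 to 6180 in CDAA controls and 4982 to 6616 under hydrogen on the CDAA diet. Chemokines, cytokines and adhesion genes had 32 measured members and a median of 0.193. Of these, 6 were higher (18.8%, background 6.03%) and 1 lower (3.12%, background 3.24%). Cxcl16 (0.56), Vcam1 (0.51), Cxcr4 (0.37) and Il18 (0.30) were among the higher, and Tgfb1 (-0.33) was the lower. The number higher was 3 without control normal-chow replicate 3 or 4 or hydrogen normal-chow replicate 3, 2 without hydrogen normal-chow replicate 1 or 2 or control CDAA replicate 1 or 2, and 1 without hydrogen CDAA replicate 2, where 4 were lower. Among markers of other cell types there were 2 higher and 1 lower of 20 T, NK and B cell markers at that p (10% and 5%). Stellate cell markers had 3 and 1 of 47 (6.38% and 2.13%), near the background of 6.03% and 3.24%, and none of 19 sinusoidal endothelial markers passed. Neutrophil and blood cell markers, of which 8 of 23 were measured, had a median of 0.264, with 7 above 0. The 2 higher (25%, background 6.03%) were S100a9 (0.63) and Itga2b (0.28). The summed signal of the 8 measured markers was low, at 269 to 285 in normal-chow controls, 241 to 260 under hydrogen on chow, 227 to 238 in CDAA controls and 229 to 290 under hydrogen on the CDAA diet. The part of cell content in the metabolic and clock groups was not tested.

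Other genes with large values stand alone, and those named here were chosen after their values were seen. Bcl6, a repressor that growth hormone turns down in liver, had the diet dependence 3.82 ± 1.08 (adjusted p = 0.332, limma). It read 9.94, 9.31, 6.99 and 9.01 log2 in normal-chow controls and 6.54, 5.55, 5.90 and 5.69 under hydrogen, without overlap. On the CDAA diet it read 5.19, 5.02, 6.82 and 7.15 in controls and 6.68, 8.53, 8.10 and 4.58 under hydrogen, a spread of several log2 within the group. Onecut1, a hepatocyte transcription factor that growth hormone turns up, had the opposite sign, -2.51 ± 0.91 (adjusted p = 0.46). Cyp7a1, the rate-limiting enzyme of bile acid synthesis, had 1.53, from -0.07 on normal chow and 1.45 on the CDAA diet. Lpl, lipoprotein lipase, had 1.14, with control normal-chow replicate 4 at 5.45 log2 against 4.09 to 4.20 on the other 3 controls. The normal-chow difference of Lpl was -0.54, and -0.22 without that array. G0s2, an inhibitor of triglyceride lipase, had -1.40, from 0.29 and -1.11. Glycogen genes were split, with glycogen synthase Gys2 at 0.72 and the phosphatase targeting subunit Ppp1r3b at -0.78. Serpina7, which carries thyroxine, had 1.54, Tat, tyrosine aminotransferase, -1.5, and Sgk1, a kinase induced by glucocorticoids, -1.06. None of these passed the adjusted test.

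Some genes had hydrogen differences of the same sign on both diets. At an unadjusted p under 0.05 in both arms there were 138 of 11435 genes. Of these, 19 were higher in both, 58 lower in both, 42 lower on chow and higher on the CDAA diet, and 19 the reverse. Over all genes, 3.31% were higher and 3.8% lower at that p on normal chow, and 7.28% and 5.31% on the CDAA diet. Whether the numbers in both arms exceed what these shares alone would give was not tested. Without control CDAA replicate 2 there were 193 genes, 33 higher in both, 97 lower in both, 41 lower on chow and higher on the CDAA diet, and 22 the reverse. Lgalsl, a galectin-like gene, had -0.88 on normal chow and -1.13 on the CDAA diet, and Rprm, a p53-induced cell cycle inhibitor, had -0.74 and -1.43. Tmcc3 had -0.35 and -0.89. On the CDAA diet Lgalsl, Rprm and Tmcc3 fell by the adjusted test, and in each leave-one-out fit, while their diet dependence was -0.24 (unadjusted p = 0.284), -0.69 (0.0163) and -0.54 (0.00139). So Rprm and Tmcc3 shared the sign but had the larger difference on the CDAA diet. DNA replication and mitosis genes had 39 measured members, with medians of -0.200 on normal chow and -0.213 on the CDAA diet. Their median diet dependence was 0.008, with 1 higher and 1 lower (2.56% each, background 6.03% and 3.24%). That closeness rested on single arrays: the median diet dependence was -0.192 without hydrogen CDAA replicate 3, -0.142 without control CDAA replicate 2 and 0.160 without hydrogen CDAA replicate 2.

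**Figure D4:**
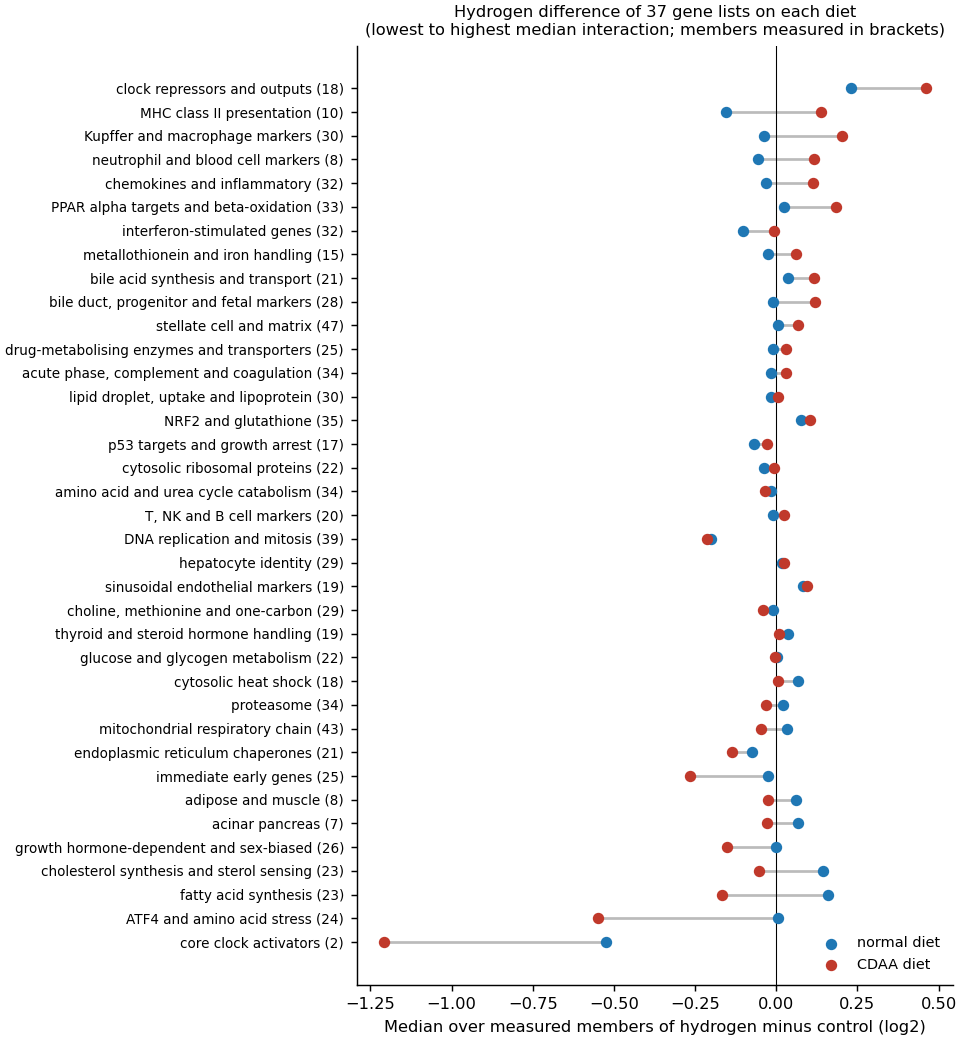
Each row is 1 of 37 gene groups, with the median hydrogen difference (log2) of its measured members on normal chow in blue and on the CDAA diet in red. The points lie far apart for ATF4 genes (0.005 and -0.549) and close together for DNA replication genes (-0.200 and -0.213).

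The groups described next had from none to 13.3% of members higher at an unadjusted p under 0.05, and from none to 6.67% lower (background 6.03% and 3.24%). Those with none were 43 measured respiratory chain genes, 22 ribosomal protein genes, 21 endoplasmic reticulum chaperones and 32 interferon-stimulated genes. The respiratory chain values were small but one-sided, with a median of -0.067 and only 4 above 0. Its hydrogen difference was above 0 for 33 members on normal chow and 3 on the CDAA diet, with medians of 0.033 and -0.047. Relative to each gene's mean over all arrays, the mean of these genes was 0.12 log2 on control CDAA replicate 2, against -0.005 to 0.042 on the other CDAA controls. Of the others, 14 ribosomal, 5 chaperone and 22 interferon-stimulated genes were above 0, and the interferon-stimulated median was 0.125. The mean of the interferon-stimulated genes, relative to each gene's mean over all arrays, was uneven among the hydrogen CDAA arrays. It was -0.109, 0.698, -0.292 and 0.112 log2 there, with replicate 2 far above the rest, and 0.216, 0.165, 0.094 and -0.041 in the CDAA controls. NRF2 targets, the antioxidant genes often studied with hydrogen, had a median of 0.028 over 35 members. Of these, 3 were higher (8.57%) and 1 lower (2.86%). The higher members were Nqo1 (0.89), Hmox1 (0.51) and Gstt2 (0.28), and the lower was Me1. The small median does not mean that hydrogen left the NRF2 targets unchanged. On the CDAA diet 9 were higher under hydrogen at that p (25.7%, background 7.28%) and 1 lower (2.86%, background 5.31%), with a median of 0.105. With chow 2 were higher (5.71%, background 3.31%) and none lower, with a median of 0.075. Acute phase and complement genes had 4 higher of 34 (11.8%) and a median of 0.034, with Il6r at 0.87, Lbp at 0.57, C1s at 0.38 and C1r at 0.32. Lipid droplet and lipoprotein genes had a median of 0.031 over 30 members, with 4 higher (13.3%) and 2 lower (6.67%). Over all 37 groups, 20 had a median above 0.

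**Figure D5:**
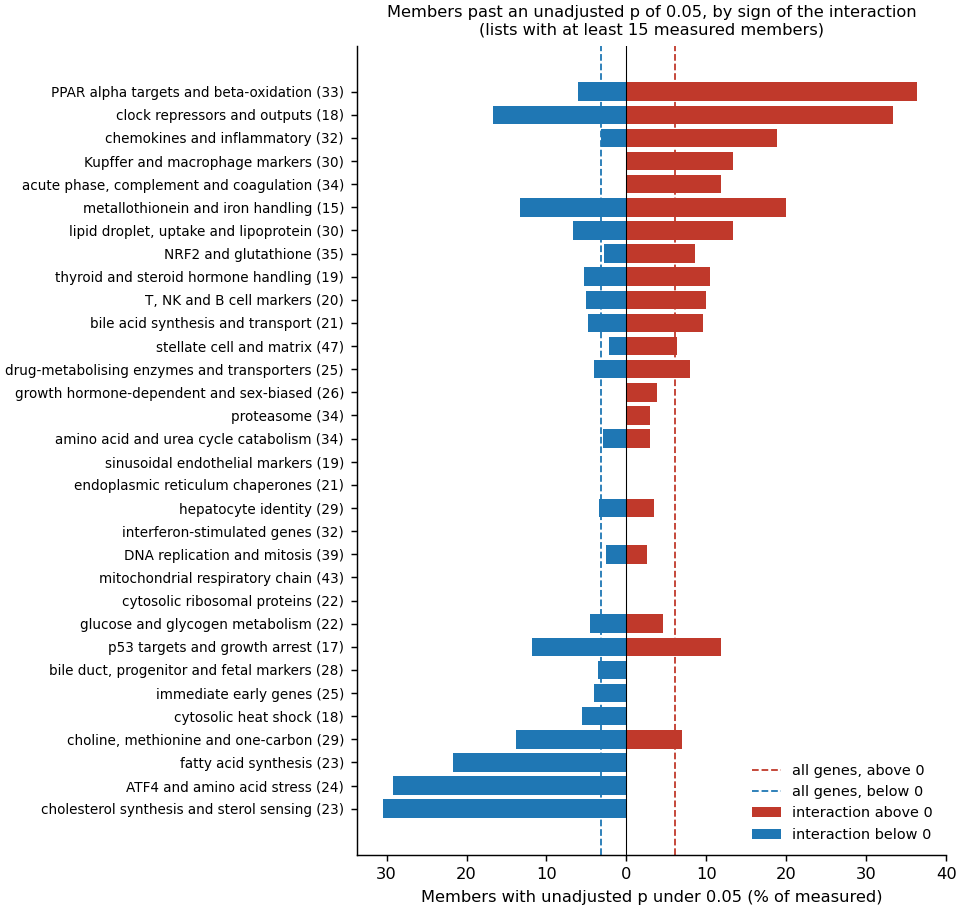
Bars give, for the 32 gene groups with at least 15 measured members, the percent of members with an unadjusted p under 0.05 for a positive or a negative diet dependence. The PPAR alpha group has 12 higher of 33, the ATF4 group 7 lower of 24 and the cholesterol group 7 lower of 23, beside 6.03% higher and 3.24% lower over all genes.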

How the data were processed

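Livers of 16 rats were measured on Affymetrix RG-230 PM arrays. The deposited values are log2 signals per probe set, made by the authors with RMA in Affymetrix Expression Console, per the submitters' processing notes. They were used as deposited, from 2.42 to 13.73. The 97 control probe sets were left out, and 8408 others were dropped because fewer than 4 arrays put them above 3.68 log2, the 30th percentile. Of the probe sets, 19063 had 1 gene symbol, 572 several and 11407 none, and 18983 matched the RefSeq table of GRCr8 by Entrez identifier. A gene was its tested probe set with the highest mean.

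limma 3.58.1 in R 4.3.3 fitted 1 mean per group over all 16 arrays (n = 4 each), with empirical Bayes variances and Benjamini-Hochberg adjustment over 22634 probe sets at 0.05. It was tested on simulated data. The rule for named genes took the 10 of smallest p in each direction, up to 3 of smallest p per described list, and up to 6 with opposite or equal signs in both arms. Other genes were named after their values were seen. The contrast, the 37 lists and the alternatives were chosen with earlier results of these data known. Replicate numbers shared between groups were not used to pair the arrays in the main fit.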

Additional observations from a re-analysis of the deposited data

Results flagged for a closer look

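Several named genes had 1 array far from the other 3 of its group, by Dixon's criterion for groups of 4 (0.829). There were 20 such cases among the 304 groups of 4 values checked, where chance gives about 1 in 20, and no array held more than 3. Control normal-chow replicate 4 was high for Fgf21 (9.23 log2 against 4.59 to 5.17), Chac1 (7.30 against 6.15 to 6.25) and Lpl (5.45 against 4.09 to 4.20). Control normal-chow replicate 3 was low for Rin2 (7.02 against 7.78 to 7.89) and Acly (9.92 against 10.58 to 10.65). Control normal-chow replicate 2 was high for Cry1 (5.23 against 5.10 to 5.11) and low for Mid1ip1 (7.95 against 8.40 to 8.49).

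In the hydrogen normal-chow group, replicate 2 was low for Cry1 (4.86 against 4.98 to 4.99) and high for Cd86 (4.38 against 4.11 to 4.14) and Lpl (4.08 against 3.86 to 3.89). Replicate 4 was high for Cmklr1 (4.78 against 4.62 to 4.64) and low for the complement genes C1r (10.73) and C1s (11.43 against 11.60 to 11.61), and replicate 1 was low for Ccne1 (4.85 against 5.05 to 5.06).

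In the CDAA controls, replicate 2 was low for Npas2 (6.45 against 7.48 to 7.69), and replicate 3 was low for Slc44a1 (6.55 against 6.69 to 6.70) and Cpt1a (10.26 against 10.96 to 11.05). In the hydrogen CDAA group, replicate 2 was high for Slc44a1 (7.45 against 6.72 to 6.80), and replicate 3 was low for Il6r (6.84 against 7.49 to 7.52) and high for Crot (10.78 against 10.60 to 10.63).

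The hydrogen difference of 1390117_PM_at differed between the diets by the limma test, by -0.68 log2, as the report gives.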

How the results depend on the processing

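Alternatives were run 1 at a time: quantile normalisation again, other low-value filters, array weights, trended and robust variances, a replicate block, each diet's 8 arrays alone, and each array left out. Leaving out both arrays that stood apart was chosen after the data were seen. The numbers of called probe sets for diet dependence were 0 with the replicate block, 3 with array weights, 38 without both arrays and 0 to 21 over the leave-one-out fits. For hydrogen on normal chow they were 1 with the block (a probe set not called before), 5 with trended and robust variances, 46 with array weights, 5 without both arrays, 17 from the normal-chow arrays alone and 0 to 11 over the leave-one-out fits. For hydrogen on the CDAA diet they were 363 without both arrays, 2 from the CDAA arrays alone and 21 to 346 over the leave-one-out fits. The replicate block gave 82 there. Same-numbered arrays correlated by -0.13 to 0.33 after removal of group means, with a median of 0.078 against -0.01 for other pairs. These values cannot tell whether a number marks arrays that were handled together.

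Higher chemokine members numbered 3 with quantile normalisation again, with a 50th percentile filter, with the block and without both arrays, 2 with array weights and 1 to 7 over the leave-one-out fits. Higher macrophage markers numbered 1 with array weights, 0 without both arrays and 2 to 14. Lower cholesterol members numbered 4 with array weights, 3 without both arrays and 4 to 8. Lower ATF4 members numbered 17 without both arrays and 4 to 12, and lower fatty acid synthesis members 3 to 10. The leave-one-out medians were 0.212 to 0.435 for clock outputs and 0.082 to 0.189 for metallothionein and iron genes.

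Of 76 named items, 74 kept the sign of their diet dependence in every alternative run. Tns2, at 0.00 as reported, gave -0.06 with quantile normalisation again and without control normal-chow replicate 4 or control CDAA replicate 1, -0.04 without hydrogen CDAA replicate 1 and without both arrays, -0.03 without control normal-chow replicate 3 or hydrogen normal-chow replicate 2, -0.02 with array weights, and -0.01 without hydrogen normal-chow replicate 1, control CDAA replicate 4 or hydrogen CDAA replicate 3. Btg1 gave -0.01 without hydrogen CDAA replicate 2. Over the leave-one-out fits Tns2 ranged from -0.06 to 0.06 and Btg1 from -0.01 to 0.09. The cause was not tested.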
